A study of Mus musculus with 3 samples.

Results

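The ADAM, ADAMTS and MMP metalloproteases and their TIMP inhibitors were examined in 3 segments of the embryonic mouse gut. Members were chosen by name, as every gene of the deposited table called Adam, Adamts, Adamtsl, Mmp or Timp followed by a number, together with Adamdec1. The rule found 84 of 33762 features, and 57 of them had at least 20 counts in a segment and are reported here. Those 57 are 17 ADAM, 19 ADAMTS, 5 ADAMTS-like, 13 MMP and 3 TIMP genes. The samples were the caecum, the colon and the presumptive ileum of wild type Bl6/C57 embryos at E13.5, with 1 polyadenylated RNA library from each and no treatment. The ileum is the last of 3 equal lengths into which the small intestine was cut. How many embryos made up a sample is not given in the sources used here. Every difference below therefore compares 1 library with 1 library and has no replicate check, and the intervals in brackets cover counting error only.

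All 4 families act on proteins outside the cell. MMPs are zinc proteases, secreted or held in the membrane, that cut collagens and other matrix proteins, and TIMPs block them by sitting in their active site. ADAMs are membrane proteases that release the outer part of receptors, ligands and adhesion proteins, a step called shedding, although some ADAMs have lost the catalytic site and act in adhesion. ADAMTS enzymes are secreted and cut proteoglycans, procollagens or von Willebrand factor, while ADAMTS-like proteins share their outer domains and lack the protease.

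The zinc site is what makes a member a protease, and its coding bases are shown for the members on which the results turn. The motif searched in each reading frame is a histidine, a glutamate, any 2 residues, a histidine, any 2 residues, a glycine, asparagine or serine, any 2 residues, and a histidine or aspartate. It was found in 43 of the 54 reported genes other than TIMPs, including all 19 ADAMTS and all 13 MMP genes. It was not found in Adam4, Adam5, Adam11, Adam22, Adam23, Adam32 or the 5 ADAMTS-like genes. Sequences are of GENCODE vM21 transcripts, 5′ to 3′. Capitals mark the codons of the 3 zinc-binding positions and, just before the last of these, that of the middle residue. The first set compares Adamdec1, which had the widest range of levels, with 3 abundant sheddases.
Adamdec1: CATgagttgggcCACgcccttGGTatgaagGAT
Adam10: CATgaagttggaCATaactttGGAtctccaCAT
Adam17: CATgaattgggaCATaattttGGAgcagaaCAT
Adam9: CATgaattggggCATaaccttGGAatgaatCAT
Adamdec1 was the 1 member of 43 with an aspartate codon at the last zinc-binding position, and the other 42 have a histidine codon there. The second set holds Adamts18 and its closest relative Adamts16, Adamts17, and 3 of the MMPs described below.
Adamts18: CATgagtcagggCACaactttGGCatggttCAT
Adamts16: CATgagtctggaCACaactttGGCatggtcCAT
Adamts17: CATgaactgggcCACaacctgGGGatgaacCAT
Mmp28: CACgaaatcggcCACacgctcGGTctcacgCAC
Mmp11: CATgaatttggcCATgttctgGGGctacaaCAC
Mmp14: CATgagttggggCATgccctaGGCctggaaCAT

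The levels were first compared within each library by RPKM, the authors' read count scaled to gene length and library depth. Adam10, the main sheddase of Notch receptors, was the most abundant member on average, at 44.1, 44.3 and 43.5 RPKM in the caecum, colon and ileum. Mmp14, a membrane-type MMP that activates pro-MMP2, had 48.3, 45.3 and 30.5 RPKM. Mmp2, the gelatinase it activates, had 35.5, 29.9 and 29.6 RPKM. They held the first 3 places in the caecum. In the colon Adam19 at 33.2 RPKM ranked above Mmp2, and in the ileum Adamdec1 at 34.2 RPKM ranked between Adam10 and Mmp14. The 10 most abundant members made up 70.3%, 67.9% and 68.7% of the summed member RPKM in the caecum, colon and ileum. At the other end, 17, 19 and 20 of the 57 members were under 1 RPKM. On the plot of levels Adamdec1 and Adamts18 have the widest spans, and 39 members were within 2-fold in every comparison they entered.

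**Figure D1:**
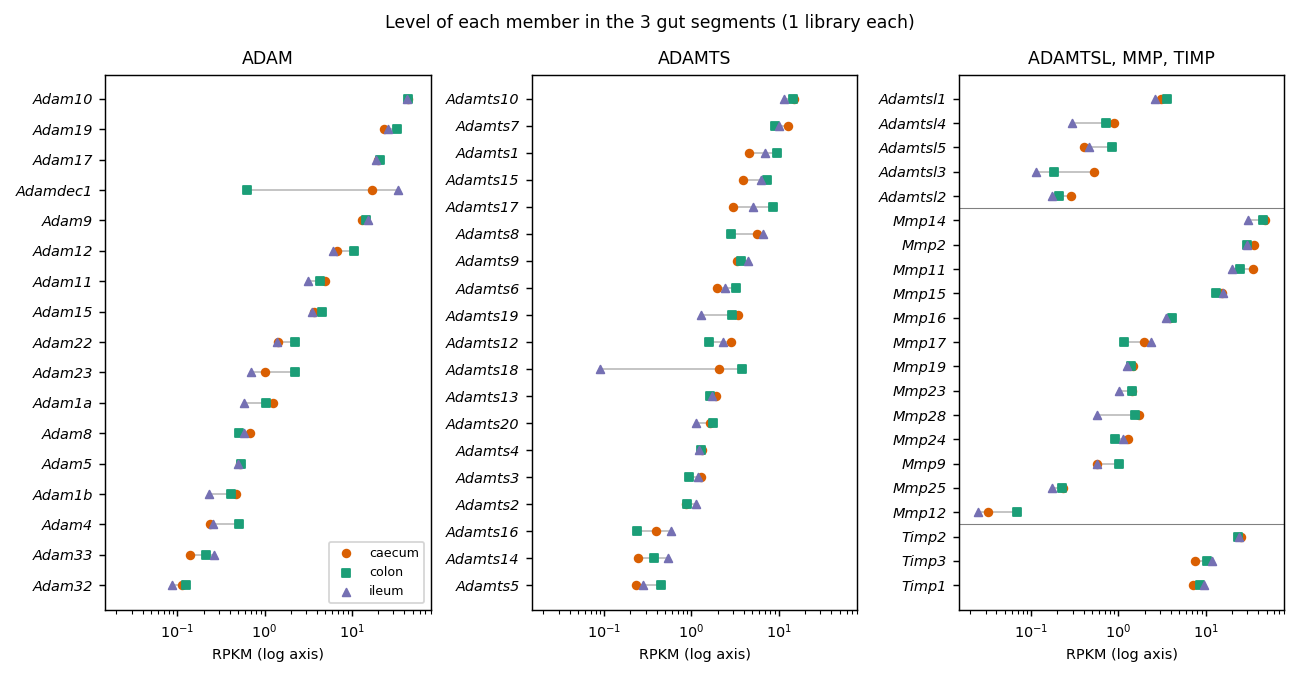
Level of each of the 57 reported members in RPKM on a log axis, with 1 library each for caecum (circles), colon (squares) and ileum (triangles), ordered by mean level within each family, and grey lines joining the lowest and highest value. Adamdec1 runs from 0.625 RPKM in the colon to 34.2 in the ileum and Adamts18 from 0.0888 in the ileum to 3.78 in the colon, while the 3 markers of Adam10 lie on top of each other.

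A member is called apart here where TMM-scaled counts differed by 2-fold or more, and where the higher library of the pair had 20 counts or more. By this measure 18 of the 57 members, or 31.6%, were apart in at least 1 pair, and so were 13.7% of all 18005 features with 20 counts. Between caecum and ileum, 7 of 56 members (12.5%) were higher in the caecum, where 4.59% of all features were, and 2 (3.57%) were lower, where 2.52% of all features were. Between caecum and colon, 2 of 57 members (3.51%) were higher in the caecum beside 5.11% of all features, and 6 (10.5%) were lower beside 2.74%. Between colon and ileum, 7 of 56 members (12.5%) were higher in the colon beside 4.04% of all features, and 4 (7.14%) were lower beside 4.29%. The 3 pairs share their libraries, so these counts are not independent of each other. The median log2 fold of the members was 0.10 in the caecum over the ileum, -0.02 in the caecum over the colon and 0.28 in the colon over the ileum, and that of all features compared was 0.01, 0.01 and -0.004.

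**Figure D2:**
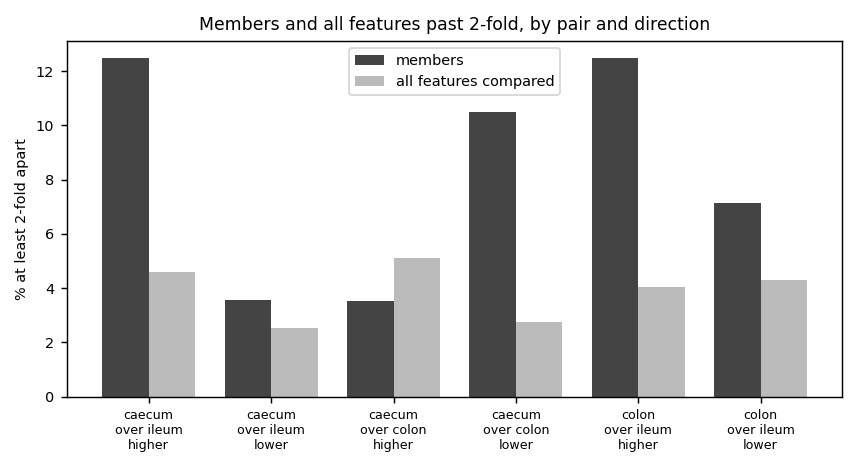
Percent of members (dark bars) and of all features compared (light bars) that were at least 2-fold higher or lower, for each pair of libraries. The members' bar is above that of all features in 5 of the 6 columns, and below it for genes higher in caecum over colon, at 3.51% against 5.11%.

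Adamdec1 was far lower in the colon than in the caecum or ileum. It encodes decysin, a short secreted ADAM relative that in the adult intestine is known from macrophages and stromal cells of the lamina propria. The gene (ENSMUSG00000022057, minus strand of chromosome 14, 69181445 to 69200143 in mm9) had 2673, 77 and 4156 counts, or 17.1, 0.625 and 34.2 RPKM, in the caecum, colon and ileum. Its value was 27.5-fold (21.9 to 34.9) above the colon in the caecum, 55.5-fold (44.3 to 70.5) below the ileum in the colon, and 2.02-fold (1.93 to 2.12) below the ileum in the caecum. The last of these lies at the threshold, and its interval reaches below 2-fold. Adam28 and Adam7, its neighbours on either side at 23.9 and 29.7 kb, were nearly uncounted, with 11, 4 and 4 counts for Adam28 and 4, 0 and 2 for Adam7.

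Cell type markers were set beside this result. The macrophage list, headed by Csf1r and Ptprc, had 0 of 9 members apart in any pair, and its summed level was 22.1, 19.7 and 18.9 RPKM in the caecum, colon and ileum. In sum the list of enteric neurons and glia was lower in the colon, at 129, 65.6 and 118 RPKM. Of its members, 4 of 8 were 2-fold above the colon in the caecum and 5 of 8 below the ileum in the colon. Ret went the other way there, at 1.10-fold (1.07 to 1.14) above the ileum in the colon. Smooth muscle markers summed to 425, 581 and 1102 RPKM, and 6 of 8 were 2-fold below the ileum in the caecum and 5 of 8 in the colon. Among them Des was 1.38-fold (1.30 to 1.47) above the ileum in the caecum. Pericyte markers summed to 43.0, 84.1 and 89.1 RPKM, and 3 of 6 were 2-fold lower in the caecum in each of its comparisons. Of the pericyte markers, Notch3 was 1.21-fold above the ileum and 1.11-fold above the colon in the caecum. No defining marker of these 4 lists was at 0 in a library. The part of the neural, muscle and pericyte differences in Adamdec1 and the genes below was not tested. In whole tissue, fewer cells of a type and less RNA per cell cannot be told apart.

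Adamts18 separated the ileum from the other segments. It encodes an ADAMTS protease of development, for which loss in mice affects branching organs and the eye. The gene (ENSMUSG00000053399, minus strand of chromosome 8, 116221026 to 116372641) had 796, 1144 and 26 counts, or 2.07, 3.78 and 0.0888 RPKM, in the caecum, colon and ileum. It was 23.5-fold (15.9 to 36.3) above the ileum in the caecum and 42.8-fold (29.0 to 65.8) above the ileum in the colon. The caecum stood 1.82-fold (1.66 to 1.99) lower than the colon. Adamts16, its closest relative, was lowest in the colon and highest in the ileum, with 172, 82 and 198 counts. The fold of Adamts16 was 2.48 (1.91 to 3.26) below the ileum in the colon. The zinc sites of the pair, shown above, encode the same layout.

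Adamts19, Mmp28 and Adamtsl4 followed Adamts18 with smaller folds, each lowest in the ileum and less than 2-fold apart between caecum and colon. Adamts19, an ADAMTS with no settled substrate, had 1017, 687 and 300 counts in the caecum, colon and ileum and was 2.61-fold (2.29 to 2.97) above the ileum in the caecum and 2.23-fold (1.94 to 2.56) above it in the colon. Mmp28, or epilysin, is a secreted MMP described in epithelia and macrophages. It had 425, 303 and 112 counts and was 2.92-fold (2.36 to 3.63) above the ileum in the caecum and 2.63-fold (2.11 to 3.30) above it in the colon. Adamtsl4, which binds fibrillin-1, had 239, 154 and 62 counts and was 2.96-fold (2.23 to 3.99) above the ileum in the caecum and 2.41-fold (1.79 to 3.30) above it in the colon. The interval of Adamts19 and of Adamtsl4 for colon over ileum reached below 2-fold. Mmp28 shares 465 bases with 1700020L24Rik on the other strand, which had 83, 51 and 18 counts, and whether the counting used strand is not given in the sources used here. Of the epithelial markers, 8 of 8 were counted in each library, and their sums were 178, 219 and 183 RPKM in the caecum, colon and ileum. Of these, 1 was 2-fold below the ileum in the caecum and 1 above it in the colon, and their part in the result was not tested.

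Adamtsl3 was the member that marked the caecum. This ADAMTS-like protein of the matrix had 264, 72 and 44 counts, or 0.530, 0.182 and 0.115 RPKM, in the caecum, colon and ileum. The caecum was 4.61-fold (3.34 to 6.50) above the ileum and 2.90-fold (2.23 to 3.82) above the colon, and no other member passed 2-fold in the caecum over both segments. The other ADAMTS-like genes differed from it and from each other. Adamtsl1, the most abundant, had 3.07, 3.64 and 2.61 RPKM and Adamtsl2 had 0.288, 0.211 and 0.172 RPKM, both within 2-fold in every pair. Adamtsl5 had 123, 202 and 110 counts and was 2.08-fold (1.65 to 2.62) below the colon in the caecum. Of the 9 genes of fibrillin microfibrils, which bind ADAMTS-like proteins, Ltbp2 was 2-fold above the colon in the caecum, Mfap5 was 2-fold above the ileum in the colon, and the others stayed within 2-fold. Fbn1 had 10650, 16826 and 10354 counts, which put the caecum 1.997-fold below the colon, and Fbn2 had 32501, 16592 and 14947.

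**Figure D3:**
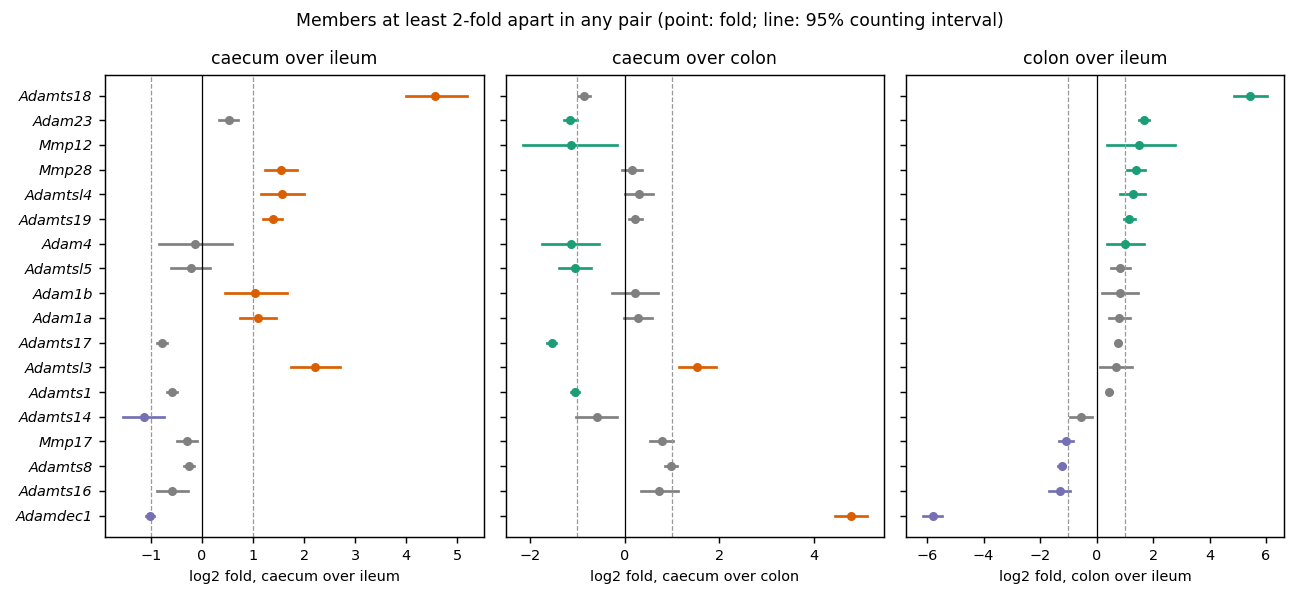
Log2 folds of the 18 members at least 2-fold apart in any pair, in 1 panel for each pair of segments, with points for the fold, lines for the 95% counting interval, dashed lines at 2-fold and the x axes scaled separately. Coloured points passed 2-fold and take the colour of the higher tissue (orange caecum, green colon, purple ileum), and grey points did not. Adamts18 at the top and Adamdec1 at the bottom lie far outside the others in colon over ileum. Mmp12 is not drawn for caecum over ileum, where it had under 20 counts in both libraries.

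A group of members was highest in the colon. Adamts17, an ADAMTS that in humans is linked to short stature and fibrillin, had 1376, 3174 and 1824 counts in the caecum, colon and ileum. It was 2.92-fold (2.74 to 3.11) below the colon in the caecum and 1.69-fold (1.60 to 1.79) above the ileum in the colon. Adam23, an ADAM with no catalytic site that binds LGI proteins on neurons, had 709, 1245 and 380 counts. The gene was 2.22-fold (2.02 to 2.44) below the colon in the caecum and 3.18-fold (2.84 to 3.58) above the ileum in the colon. The enteric neuron and glia sums given above were lowest in the colon, and their part in the result was not tested. Adam22, a relative of Adam23, had 1139, 1374 and 860 counts, and Adam11, of the same group of neural ADAMs without the motif, had 1784, 1232 and 900. Both stayed within 2-fold.

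Adamts1, which cuts versican, had 1582, 2587 and 1838 counts and was 2.07-fold (1.94 to 2.20) below the colon in the caecum. Adamts1 and Adamts5 lie 55.1 kb apart on chromosome 16, and Adamts5, a strong aggrecan-cleaving enzyme, showed a like order at a lower level, with 120, 184 and 114 counts. Its caecum value was 1.94-fold (1.53 to 2.46) lower than that of the colon. Adam12, a sheddase of mesenchyme and forming muscle, had 3578, 4506 and 2500 counts and was 1.75-fold (1.67 to 1.84) above the ileum in the colon. Mmp9, the gelatinase of leukocytes and osteoclasts, was sparse at 128, 184 and 101 counts. Mmp12, the macrophage elastase, had 15, 26 and 9 counts and Adam4 had 38, 66 and 32. They passed 2-fold in the colon with wide intervals, of 1.28 to 6.81 for Mmp12 and 1.29 to 3.16 for Adam4 over the ileum. Adam4 lies wholly inside Cox16 and Synj2bp on the same strand, so reads of the 3 genes may have been assigned to any of them.

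Adamts8 and Mmp17 were lowest in the colon. Adamts8 had 1660, 667 and 1526 counts in the caecum, colon and ileum, and Mmp17, a membrane-type MMP anchored by lipid, had 444, 204 and 416. Their folds were 2.35 (2.15 to 2.58) and 2.10 (1.77 to 2.49) below the ileum in the colon. The caecum exceeded the colon by 1.97-fold (1.80 to 2.16) for Adamts8 and by 1.72-fold (1.46 to 2.04) for Mmp17, both under the threshold. Adamts8 starts 20.1 kb from Adamts15 on chromosome 9, with the genes pointing away from each other (Adamts15 on the minus strand, 30706740 to 30730037, and Adamts8 on the plus strand, 30750147 to 30771423). Adamts15 was highest in the colon, where Adamts8 was lowest. Adamts15 had 1470, 2190 and 1838 counts and was 1.88-fold (1.76 to 2.01) below the colon in the caecum.

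Adamts1, Adamts5, Adamts8 and Adamts15 belong to the ADAMTS enzymes that cut versican and related proteoglycans, together with Adamts4, Adamts9 and Adamts20. The coding bases of the zinc site show what most of them share and where Adamts5 and Adamts8 differ, with the same marking as above.
Adamts1: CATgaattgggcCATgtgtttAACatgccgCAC
Adamts4: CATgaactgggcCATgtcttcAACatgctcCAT
Adamts9: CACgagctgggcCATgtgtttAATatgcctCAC
Adamts15: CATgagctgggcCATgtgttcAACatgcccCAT
Adamts20: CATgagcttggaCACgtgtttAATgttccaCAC
Adamts8: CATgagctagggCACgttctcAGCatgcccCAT
Adamts5: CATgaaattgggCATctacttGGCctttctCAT
The middle residue is an asparagine codon in 5 of the 7, a serine codon in Adamts8 and a glycine codon in Adamts5. Among all 43 members with the motif, asparagine occurred in these 5 alone. The summed RPKM of the 7 genes was 20.6, 27.0 and 26.8 in the caecum, colon and ileum. Adamts9 had 2705, 2372 and 2820 counts, Adamts20 had 934, 808 and 508, and Adamts4 had 411, 316 and 294, all within 2-fold. Their main substrate Vcan had 32280, 43020 and 28414 counts, with the colon highest and no pair 2-fold apart. Hapln1, a link protein of the same matrix, was 3.13-fold above the ileum in the colon, with 1512, 2283 and 710 counts. Ncan, with 313, 90 and 155 counts, was 2.75-fold (2.17 to 3.52) above the colon in the caecum. Acan had 6, 26 and 0 counts and was apart in both comparisons of the colon.

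The procollagen N-proteinases remove the amino-terminal propeptide of fibrillar procollagens. Adamts2 and Adamts3 stayed within 2-fold, with 524, 422 and 526 and 712, 406 and 507 counts in the caecum, colon and ileum. Adamts14 was highest in the ileum, with 82, 98 and 139 counts, and was 2.21-fold (1.67 to 2.93) below the ileum in the caecum. Among the fibrillar collagens, Col1a1 had 28724, 32852 and 34844 counts and Col1a2 had 60865, 29305 and 28106. Col1a1 was 1.58-fold (1.55 to 1.60) below the ileum in the caecum, and Col1a2 was 1.67-fold above it. Of 11 genes for fibrillar collagens and their processing, 10 passed 20 counts, Tll1 was 2-fold above the colon in the caecum, Pcolce2 was 2-fold below the ileum in the colon, and none was apart between caecum and ileum.

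The other ADAMTS genes stayed within 2-fold in every pair. Adamts7 and Adamts12, which cut cartilage oligomeric matrix protein, had 12.8, 9.10 and 9.99 RPKM and 2.85, 1.61 and 2.31 RPKM in the caecum, colon and ileum. In both the caecum was highest, and Adamts12 was 1.78-fold (1.61 to 1.98) above the colon in the caecum. Adamts7 shares 6025 bases with Tbc1d2b on the other strand, which had 2907, 2326 and 2576 counts. Adamts10, a partner of fibrillin, was the most abundant ADAMTS in the caecum, colon and ileum, at 14.9, 14.7 and 11.4 RPKM. Adamts6 had 1.97, 3.202 and 2.42 RPKM, and Adamts13, the von Willebrand factor protease, had 1.89, 1.62 and 1.74 RPKM. Pofut2 and B3galtl, listed for the fucose-based sugar on thrombospondin repeats of these proteins, stayed within 2-fold as well.

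The 8 membrane ADAMs with a catalytic site and a known shedding role stayed within 2-fold in every pair. Adam10 had folds of 1.001 to 1.003 in the 3 pairs. Adam17, which sheds ligands of the EGF receptor and tumour necrosis factor, had 19.8, 20.9 and 18.7 RPKM in the caecum, colon and ileum. Adam19, a sheddase with a role in heart and muscle development, had 23.7, 33.2 and 26.2 RPKM and was 1.40-fold (1.36 to 1.43) below the colon in the caecum. Adam9 had 13.0, 14.6 and 15.2 RPKM and Adam15 had 3.66, 4.55 and 3.48 RPKM. Adam15 shares 9290 bases with 4731419I09Rik on the other strand, which had 122, 116 and 88 counts. Adam8, an ADAM of myeloid cells, was under 1 RPKM throughout, at 206, 120 and 134 counts. Adam33 had 49, 58 and 72 counts and was 1.91-fold (1.31 to 2.81) below the ileum in the caecum.

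Their carriers to the cell surface stayed within 2-fold too. Of the TspanC8 tetraspanins, which carry ADAM10 to the membrane, 5 of 6 passed 20 counts and 0 were 2-fold apart in any pair. Rhbdf1 and Rhbdf2, which carry ADAM17, stayed within 2-fold. Of the 17 shed substrates listed, 14 had at least 20 counts. Among them Nrg1, L1cam and Erbb4 passed 2-fold in the caecum over the colon, with 654, 172 and 254 counts for Nrg1, 3858, 1438 and 2189 for L1cam and 78, 18 and 12 for Erbb4. Erbb4 also passed it over the ileum, where Nrg1 had a fold of 1.98. Btc, with 28, 26 and 54 counts, was 2-fold or more below the ileum in both other segments, and Dll1, with 1210, 648 and 1286, was so in the colon. Notch1, Notch2, Jag1, Egfr and App were within 2-fold.

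Of the 4 most abundant MMPs, Mmp14, Mmp2 and Mmp11 were highest in the caecum, by less than 2-fold, and Mmp15 was not. Mmp11, or stromelysin 3, is made by mesenchyme next to growing epithelium and had 34.5, 24.5 and 19.9 RPKM in the caecum, colon and ileum. It was 1.72-fold (1.64 to 1.80) above the ileum in the caecum and 1.41-fold (1.35 to 1.48) above the colon. Mmp14 was 1.57-fold (1.51 to 1.63) above the ileum in the caecum and 1.47-fold (1.41 to 1.53) above it in the colon. Mmp2 differed by 1.19-fold (1.14 to 1.23) between caecum and ileum. Mmp15 and Mmp16, further membrane-type MMPs, had 15.6, 13.2 and 15.8 RPKM and 3.90, 4.13 and 3.56 RPKM. Mmp19, Mmp23 and Mmp24 lay between 0.917 and 1.46 RPKM, and Mmp25 had 50, 38 and 29 counts. Mmp19, with 322, 241 and 216 counts, shares 789 bases with 1110012D08Rik on the other strand, which had 2062, 1528 and 1345. Mmp24, with 390, 218 and 264 counts, shares 637 bases with BC029722 on the other strand, which had 482, 352 and 355. Mmp11 shares 2153 bases with Chchd10 on the other strand, which had 124, 97 and 60 counts.

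Among the inhibitors Timp1 and Timp3 were lowest in the caecum, and Timp2 was nearly even. Timp3, which binds to the matrix and also blocks ADAM17, had 7.64, 10.3 and 12.0 RPKM in the caecum, colon and ileum, and its caecum value was 1.59-fold (1.52 to 1.65) lower than that of the ileum. Timp1 had 7.09, 8.67 and 9.56 RPKM and was 1.36-fold (1.19 to 1.56) below the ileum in the caecum. Timp2, which also takes part in the activation of pro-MMP2 by MMP14, had 25.1, 23.6 and 24.2 RPKM, with folds between 0.961 and 1.07. Timp4 had 4, 4 and 2 counts. The 13 MMPs summed to 146.5, 124.8 and 106.4 RPKM and the 3 TIMPs to 39.9, 42.6 and 45.8 RPKM, a ratio of 3.67, 2.93 and 2.33. The ratio is of RNA levels, not of protein or activity, and rests on few genes. In the caecum Mmp14, Mmp2 and Mmp11 gave 48.3, 35.5 and 34.5 RPKM of the MMP sum, and Timp2 gave 25.1 of the TIMP sum. None of the 13 MMPs and 3 TIMPs except Mmp12, Mmp17 and Mmp28 passed 2-fold. Reck, a membrane inhibitor of MMPs, and Bsg, an inducer of MMPs, stayed within 2-fold, with 6683, 4225 and 4183 and 10619, 8417 and 8292 counts.

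**Figure D4:**
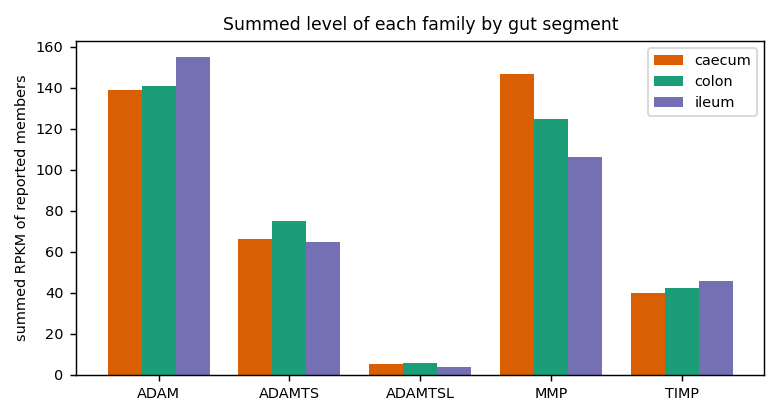
Summed RPKM of the reported members of each family in the caecum, colon and ileum, 1 library each. The MMP sum is highest in the caecum, at 146.5 RPKM, and the TIMP sum in the ileum, at 45.8 RPKM, while the ADAM sum of 155.2 RPKM in the ileum includes 34.2 from Adamdec1.

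The mature TIMPs begin with the stretch that enters the active site of the protease. Its coding bases are given for the 3 reported inhibitors, with the codons of the first pair of cysteines in capitals.
Timp1: TGTagcTGTgccccaccccacccacag
Timp2: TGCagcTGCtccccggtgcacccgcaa
Timp3: TGCacaTGCtctcccagccatccccag
Timp1 lies wholly inside Syn1 and Timp3 inside Syn3, both on the other strand. Syn1 had 268, 102 and 186 counts and Syn3 had 1680, 1690 and 1915 in the caecum, colon and ileum. Part of the reads of Timp1 and Syn1, and of Timp3 and Syn3, may therefore have been assigned to either gene of the pair.

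ADAMs known from testis and sperm were low or uncounted. Of these genes Adam1a, Adam1b, Adam4, Adam5 and Adam32 passed 20 counts. Adam1a had 249, 162 and 90 counts and Adam1b, its neighbour, had 88, 60 and 33. They were 2.13-fold (1.67 to 2.74) and 2.05-fold (1.36 to 3.16) above the ileum in the caecum, and both intervals reached below 2-fold. Adam1a overlaps Mapkapk5 and Tmem116, and Adam1b overlaps Tmem116, along nearly their whole length. Mapkapk5 had 2510, 1806 and 1812 counts and Tmem116 had 312, 256 and 215. Adam5 had 106, 86 and 78 counts and Adam32 had 22, 19 and 13. The list of 6 germ cell markers summed to 3.74, 3.83 and 5.90 RPKM, and its members did not share an order. Sycp3 had 236, 212 and 326 counts, Ddx4 had 68, 19 and 28, Spaca1 had 26, 10 and 30 and Dazl had 10, 27 and 16. Acrv1 was at 0 in the colon and ileum. Their part in the result was not tested.

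Of the 84 members, 27 did not reach 20 counts in a library, and 14 of these had 0 rounded counts in all 3, of which 9 had no count at all in either column before rounding. Nearest to the minimum were Adam32 with 22, 19 and 13 counts and Mmp12 with 15, 26 and 9 on the inside, and Adam21 with 18, 12 and 12 and Mmp21 with 0, 12 and 1 on the outside. The collagenases and stromelysins of the MMP cluster on chromosome 9 were among the uncounted. Mmp13, the main collagenase of mouse bone, had 3, 1 and 4 counts, Mmp8 had 0, 0 and 1 and Mmp10 had 0, 1 and 0. Mmp7, the matrilysin of Paneth cells in the adult gut, had 0, 0 and 4 counts. A count of 0 allows up to 3 counts in that library.

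The libraries held 64439701, 50772855 and 50079617 counts for the caecum, colon and ileum. Hoxd13, a marker of the hindgut end, had 13, 2354 and 1 counts and was highest in the colon. Gata4, a factor of the proximal intestine, had 4, 58 and 702 and was highest in the ileum. Gata4 did not fall stepwise along the gut, as the caecum was 18.3-fold (6.79 to 69.5) below the colon. Hoxd10 had 4117, 650 and 2 counts and was highest in the caecum. Mesenchyme and blood endothelium markers had 1 and 0 of 8 members above the ileum in the caecum, and none lower. The same numbers were above the ileum in the colon, with none lower, and none was apart between caecum and colon. The mesenchyme marker was Twist1 in both cases, with 734, 804 and 182 counts. Mesothelial markers summed to 47.8, 54.6 and 38.5 RPKM. Among them Msln had 16, 204 and 24 counts. It was 16.1-fold (9.69 to 28.7) below the colon in the caecum and 8.26-fold (5.40 to 13.2) above the ileum in the colon. The other mesothelial markers stayed within 2-fold. Urothelial markers summed to 11.1, 16.3 and 7.37 RPKM. Of these 4, Upk1a had 240, 452 and 103 counts and Upk1b had 926, 848 and 514. Upk2 had 5, 3 and 0 counts and Upk3a had 0, 2 and 0. The list of pancreas, liver and yolk sac genes summed to 29.5, 25.9 and 8.16 RPKM. Afp alone gave 23.4, 22.7 and 4.15 RPKM of these sums, with 3144, 2400 and 433 counts. Ttr with 462, 158 and 226 counts, Alb with 8, 36 and 6 and Cpa1 with 15, 28 and 23 did not share its order. Ptf1a was at 0 in all 3. Granulocyte and mast cell markers were sparse, with 2 of 10 at 20 counts or more. Of these Mpo had 118, 0 and 8 counts, while Prtn3 had 184, 78 and 106 and stayed within 2-fold in every pair. Elane, Mcpt4, Ngp and S100a8 were at 0 in at least 1 library. The part of these lists in the differences above was not tested.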

How the data were processed

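Polyadenylated RNA of 3 gut segments was sequenced as paired reads of 100 bp, with 1 sample per segment. Bowtie 0.12.7, DESeq and the build mm9 appear in the submitters' processing notes, with no role given. The authors deposited expected counts, with fractions of 0.5 in places, and RPKM values for 33762 features, per the file headers. Counting program, annotation release and strand use are not given in the sources used here. Each segment has 2 columns, headed as replicates, which come from 1 sample. They differed by 0.486, 0.486 and 0.485 of the counting variance in the caecum, colon and ileum, so they were read as 1 library, averaged and rounded to whole counts. The authors' RPKM values were averaged.

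Libraries were scaled by TMM (edgeR 4.0.16, R 4.3.3). A fold is the ratio of 2 scaled counts. Its 95% interval is the exact Clopper-Pearson interval of a binomial share and covers counting error alone. A count of 0 was set to a floor of 3. With 1 library per segment there is no test and no p-value. Folds and intervals were tested on simulated data. Starts are counted from 1 in mm9. Coding bases were read from the longest reading frame of GENCODE vM21 transcripts, found for all 57 genes. Every member with 20 counts was named, and the 11 pathway and 12 marker lists were matched by symbol, with 1 entry unmatched. Members and lists were chosen with earlier results of these data known. Alternatives were DESeq2 1.42.0 size factors, total counts, upper quartile scaling, other minimums and thresholds, single columns and RPKM ratios.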

Additional observations from a re-analysis of the deposited data

How the results depend on the processing

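The counts of members apart kept within 1.5 times of those reported, under DESeq2 size factors, total counts, upper quartile scaling, either column alone, RPKM ratios, a minimum of more than 3 counts and a minimum of 100 counts. The median log2 fold of the members in caecum over colon, -0.023, was 0.002, 0.012 and 0.007 with more than 3 counts, with 100 counts and with the second column. Under the scalings, columns and RPKM, all 169 member folds stayed inside their counting interval and none past 2-fold changed direction. Little movement was possible, as the scalings shifted log2 folds by 0.021 or less and both columns of a segment come from 1 sample. These settings therefore cannot check the folds beyond the libraries at hand. With intervals wholly beyond 2-fold, 5 of 56 members lay above the ileum in the caecum and 0 below it, beside 2.23% and 1.31% of all features. Above the colon in the caecum lay 2 of 57 and below it 2, beside 2.86% and 1.28%. In the colon 3 of 56 lay above the ileum and 2 below it, beside 1.97% and 2.4%. With a threshold of 1.5-fold, 11 of 56 members lay above the ileum in the caecum and 7 below it, beside 9.45% and 5.91% of all features. Above the colon in the caecum lay 6 of 57 and below it 14, beside 9.55% and 5.92%. In the colon 17 of 56 lay above the ileum and 4 below it, beside 8.02% and 7.88%. Adam4, Adam33, Adamts5 and Adamts8 crossed 2-fold with 1 column alone. No paired analysis was possible because each segment has 1 sample. With 1 library per segment, counting error is the only error that can be given.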

Other observations

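Other protease systems differed between the segments as well. Pappa and Pappa2, metalloproteases that cut IGF binding proteins, had 906, 69 and 192 and 62, 8 and 15 counts in the caecum, colon and ileum. Pappa was 10.4-fold (8.13 to 13.47) above the colon in the caecum and 3.63-fold (3.10 to 4.26) above the ileum. Mep1a, the meprin alpha subunit of the brush border, was highest in the ileum, with 214, 136 and 512 counts, and Cpe, a carboxypeptidase of peptide hormones and neurons, had 5436, 1799 and 7044. Mme, or neprilysin, had 410, 216 and 138 counts and was 2.28-fold above the ileum in the caecum.

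In the plasminogen system the activators were even and other members were not. Plat and Plau had 1012, 969 and 1106 and 147, 176 and 156 counts in the caecum, colon and ileum. Plg had 202, 17 and 40 counts, and Serpinf2, the plasmin inhibitor made mainly by liver, had 1734, 395 and 266. Serpinf2 was 5.01-fold above the ileum in the caecum and 3.47-fold above the colon. Of 9 cathepsins, Ctsh was 2.08-fold above the ileum in the caecum, and Ctsk, the collagen-cutting cathepsin, was lowest in the caecum with 133, 289 and 215 counts. A2m, a broad protease trap, had 142, 152 and 48 counts. Sfrp1, a WNT antagonist described as an ADAM10 inhibitor, had 824, 15468 and 8364 counts.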
